A study of Mus musculus with 6 samples.

Results

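The constant genes of the antibody heavy and light chains were followed in cultured mouse B cells with and without Prmt1, the main enzyme for asymmetric arginine dimethylation. They were chosen by symbol as 10 genes, Ighm, Ighd, Ighg3, Ighg1, Ighg2b, Ighg2c, Ighe, Igha, Igkc and Iglc1, and 8 of these were among the 39017 genes counted. Ighd and Iglc1 were not analysed here. All 8 genes passed the filter on low counts and were tested, 7 of them heavy chain genes. Iglc2, which encodes another lambda light chain constant region, was measured beside them.

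The cells were induced germinal center-like B cells (iGBs), grown from splenic B cells of C57BL6/J mice on 40LB feeders, fibroblasts engineered to display CD40L and secrete BAFF, with IL-4. The labels give 5 ng/ml IL-4 and 3.5 days of culture, while the study's methods give a lower IL-4 concentration. Control iGBs came from 3 Cγ1-cre mice and Prmt1-null iGBs from 3 Prmt1 F/F Cγ1-cre mice, each group with 2 females and 1 male, 1 library per mouse, and no age in the labels. Both genotypes carry the Cγ1-cre allele, in which Cre is expressed together with the Ighg1 constant gene, so deletion depends on transcription of one of the genes measured here, and the Control cells carry the same modified Ighg1 locus. Feeders were depleted before RNA extraction. Ribosomal RNA was depleted, and the deposited values are raw read counts on the exons of each gene, with 45343250 to 62774232 counts per library.

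A B cell first makes IgM, with Ighm next to the rearranged variable exon. In class switch recombination Ighm is exchanged for a downstream constant gene, and cytokines choose which one: IL-4 with CD40 signals opens Ighg1 and Ighe, interferon-γ favors Ighg2c, and TGF-β favors Ighg2b and Igha. Before switching, each chosen gene makes a noncoding germline transcript that is spliced onto the same constant exons. A count on Ighg1 therefore pools germline transcripts, membrane IgG1 mRNA and secreted IgG1 mRNA, and these cannot be told apart in gene counts.

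The 7 heavy chain genes lie on the minus strand of chromosome 12 of GRCm38 in the order of transcription Ighm (113418558-113422730), Ighg3 (113356224-113361232), Ighg1 (113325240-113330523), Ighg2b (113302965-113307933), Ighg2c (113285325-113288932), Ighe (113269260-113273248) and Igha (113254830-113260236). Igkc, the kappa constant gene, is on the plus strand of chromosome 6 (70726435-70726966), inside the long noncoding RNA gene Gm30211 on the same strand, so its count may include reads of that gene. Iglc2 is on the minus strand of chromosome 16 (19198396-19200351) and overlaps Iglj2.

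The 4 IgG genes are close relatives, and how far their sequences differ bears on how well their counts can be separated. Their hinge exons, which encode the flexible stretch between the antigen-binding arms and the stem, are shown because they differ in length and cysteine content between the 4 genes. They are given 5′ to 3′ on the coding strand from GENCODE transcripts (GRCm38, minus strand), with the in-frame cysteine codons in capitals, since hinge cysteines form disulfide bonds between the chains of an antibody.
Ighg3 (chr12:113360529-113360576): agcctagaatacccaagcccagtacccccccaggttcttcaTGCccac
Ighg1 (chr12:113329844-113329882): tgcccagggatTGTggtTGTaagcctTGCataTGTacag
Ighg2b (chr12:113307261-113307326): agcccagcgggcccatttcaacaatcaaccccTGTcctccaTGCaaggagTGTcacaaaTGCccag
Ighg2c (chr12:113288263-113288325): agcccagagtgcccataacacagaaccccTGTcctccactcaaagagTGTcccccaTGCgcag
Ighg3 had 1 hinge cysteine codon in 48 bases, Ighg1 had 4 in 39 bases, Ighg2b had 4 in 66 bases and Ighg2c had 3 in 63 bases.

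The first 75 bases of the exon that encodes the first constant domain, CH1, show how identical and differing bases alternate where the genes can be lined up base by base. Capitals mark the 27 positions at which the 4 genes are not all identical.
Ighg3 (chr12:113361158-113361232): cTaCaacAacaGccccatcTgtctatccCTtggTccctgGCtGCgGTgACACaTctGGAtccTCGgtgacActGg
Ighg1 (chr12:113330449-113330523): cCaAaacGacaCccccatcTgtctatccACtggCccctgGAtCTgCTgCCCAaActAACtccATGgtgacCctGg
Ighg2b (chr12:113307859-113307933): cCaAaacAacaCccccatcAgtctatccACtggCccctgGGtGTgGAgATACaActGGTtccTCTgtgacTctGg
Ighg2c (chr12:113288858-113288932): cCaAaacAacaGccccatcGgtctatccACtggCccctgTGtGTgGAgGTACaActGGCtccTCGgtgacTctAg
Over the 291 bases of this exon, identity between pairs ran from 78.4% for Ighg3 with Ighg2c to 88.3% for Ighg1 with Ighg2b, and 203 positions (69.8%) were identical in all 4. Ighg3 was the most distant of the 4 in each of its pairs. Over whole transcripts, the share of 50-base windows of a gene found in another IgG gene was 5.49% for Ighg2c, 4.15% for Ighg2b, 1.58% for Ighg3 and 0.393% for Ighg1. No such window of Ighm, Ighe, Igha or Igkc was shared with another of these genes, and no 100-base window was shared among the heavy chain genes. Since alignments to at most 2 locations were counted, some of the counts of each of the 4 IgG genes could belong to a relative. The share of windows does not take in how abundant that relative is, and how many reads were affected was not tested. For Iglc2, 7.65% of the 50-base windows and 0 of the 100-base windows were found in Iglc3, and how many reads this touches was not tested.

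The targeted gene was checked first. Prmt1 had 71.5, 70.8 and 87.2 CPM (counts per 1000000, scaled to library size and composition) in Control replicates 1, 2 and 3 and 31.5, 26.6 and 26.6 CPM in the 3 Prmt1-null libraries. Every Prmt1-null library lay below every Control library, and the log2 fold change was −1.44 (SE 0.0950, adjusted p = 1.11e-05 with edgeR). A gene was called where edgeR's adjusted p was under 0.05 and its mean normalized count exceeded 100, and 216 of the 18268 genes tested (1.18%) were called. The B cell identity of the libraries was plain from the summed level of 6 B cell markers, 5971 to 6340 CPM in Control and 6323 to 6652 CPM in Prmt1-null iGBs. In the same order, 8 feeder fibroblast markers summed to 27.5 to 32.2 and 31.8 to 40.1 CPM, 6 T cell markers to 1.19 to 2.90 and 1.43 to 3.01 CPM, and 5 myeloid markers to 8.92 to 12.3 and 15.2 to 15.6 CPM. Of these lists, 1 gene was called, the macrophage marker Adgre1 (log2 fold change 0.73), while Cd14 had from 0 to 2 reads per library. The part of these cells in the values of the constant genes was not tested.

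By level, these were cells in which Ighm still dominated the heavy chain transcripts, with Ighe and Ighg1 as the main downstream genes. Levels between genes were compared as CPM per kilobase of annotated exon. Ighm stood at 4837 ± 237 (SD, n = 3) in Control and 4688 ± 197 in Prmt1-null iGBs, Igkc at 3161 ± 248 and 3389 ± 142, and Iglc2 at 1171 ± 138 and 1393 ± 117. Ighe followed at 678 ± 80.0 and 753 ± 20.9 and Ighg1 at 319 ± 11.5 and 389 ± 30.0, and since every culture had IL-4, its part in these levels was not tested. All other isotypes were far lower, Ighg3 at 6.09 ± 2.54 and 10.9 ± 0.189, Ighg2b at 4.12 ± 1.36 and 5.70 ± 0.838, Igha at 1.22 ± 0.213 and 2.23 ± 0.483 and Ighg2c at 0.797 ± 0.314 and 1.31 ± 0.305. By mean level per exon length, the order of the 9 genes was the same in both groups.

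**Figure D1:**
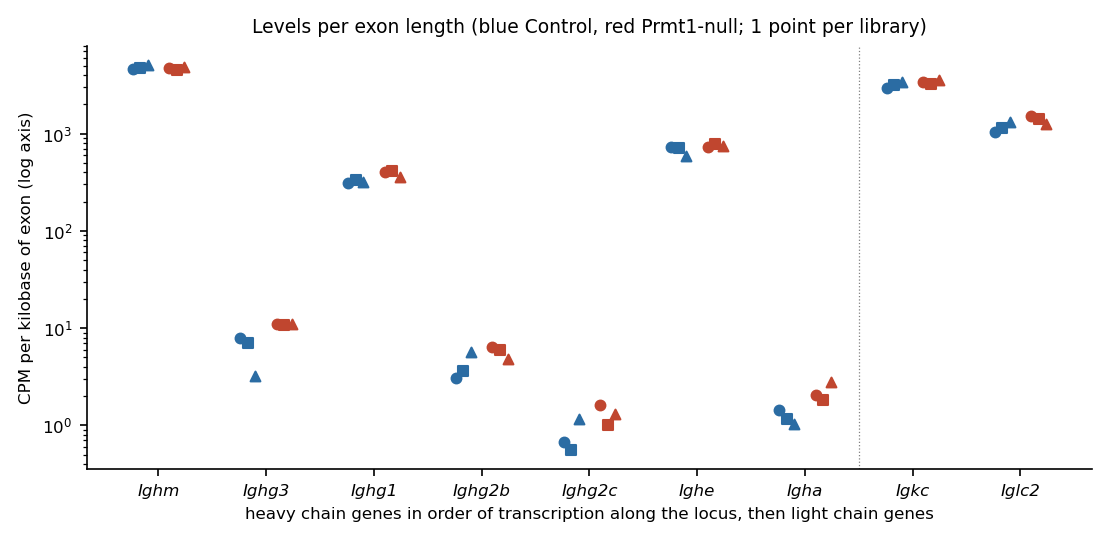
Level of each constant gene in each of the 6 libraries, as CPM per kilobase of exon on a log axis, with Control in blue, Prmt1-null in red, and replicates 1, 2 and 3 as circles, squares and triangles. Ighm, Igkc, Iglc2, Ighe and Ighg1 lie at or above 308 in every library, while Ighg3, Ighg2b, Igha and Ighg2c stay at or below 11.1.

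The widest step in this order came just below Ighg1. It exceeded Ighg3 by a geometric mean of 44.8-fold, from 32.5-fold to 99.7-fold over the 6 libraries. Neighbors in the order were separated in 6 of 6 libraries (two-sided exact sign-flip permutation test over libraries, p = 0.03125, the smallest it can give) with the exception of 2 pairs. The order was set by the levels in these same 6 libraries, so these unadjusted p-values describe it and are no independent test of it. Ighg3 was above Ighg2b in 5 of 6 libraries (exact permutation p = 0.09375), the exception being Control replicate 3, and Igha was above Ighg2c in 5 of 6 (exact permutation p = 0.0625), with the same exception. Ighe stood 2.02-fold above Ighg1 per kilobase of exon, with 2592 annotated exon bases for Ighg1 against 1585 for Ighe, of which 1183 and 1480 are coding. Dividing the same whole-exon counts by coding length put Ighg1 and Ighe 1.01-fold apart. Ighg1 was then higher in 3 of 6 libraries (exact permutation p = 0.8125), so the order of this pair depends on the length used. By this measure Ighe had the higher mean in Control and Ighg1 in Prmt1-null iGBs, and Igha was above Ighg2c in 6 of 6 libraries (3.28-fold, exact permutation p = 0.03125).

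Between Prmt1-null and Control iGBs, 0 of the 8 constant genes were called in edgeR, beside 1.18% of all genes tested, made up of 0.58% higher and 0.602% lower without Prmt1. With no adjustment and p under 0.05, 4 of the 8 passed, Ighg1, Ighg3, Ighg2b and Igha, all with a positive log2 fold change, where 13.5% of all genes passed in either direction and 6.5% in the positive one. The log2 fold change was above 0 for 7 of the 8, beside 49.9% of all genes, and ran from −0.05 for Ighm to 0.87 for Igha, with a median of 0.38 against −0.00082 over all genes tested. For 4 genes, Ighg3, Ighg1, Ighe and Igha, every Prmt1-null library lay above every Control library, which was also seen in 9.95% of all genes, and the reverse, seen in 9.92% of all genes, held for 0 of the 8. With DESeq2, where 5.42% of the genes with an adjusted p were called, 2.44% higher in Prmt1-null iGBs, Ighg1 and Igha passed the same threshold.

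**Figure D2:**
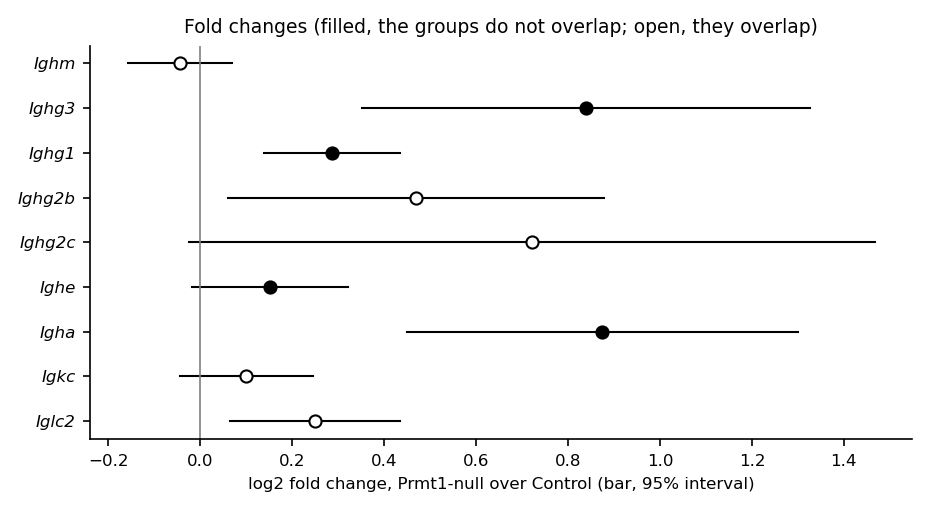
log2 fold change of each constant gene in Prmt1-null over Control iGBs, with 95% intervals from edgeR and genes in locus order. Ighm sits at −0.05 and the other genes at or above 0.10, and filled points mark genes whose groups do not overlap.

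Ighm encodes the heavy chain of IgM, the isotype of the unswitched cell. Its level was 8781, 8958 and 9630 CPM in Control and 8975, 8423 and 9129 CPM in Prmt1-null libraries. The groups overlapped, with the highest value in Control replicate 3 and the lowest in Prmt1-null replicate 2. The log2 fold change was −0.05 (95% interval −0.16 to 0.07, adjusted p = 0.776 from edgeR), so a difference of more than 0.16 in either direction lay outside the interval.

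Ighg1, which encodes the IgG1 chain and is the locus of the Cre driver, was measured at 797, 857 and 828 CPM in Control and at 1037, 1068 and 921 CPM in Prmt1-null libraries. The Control libraries lay close together, and the lowest Prmt1-null library, replicate 3, was still above all of them. The means were 827 ± 29.7 and 1009 ± 77.9 CPM (SD, n = 3), a log2 fold change of 0.29 (SE 0.0686, 95% interval 0.14 to 0.43) with an unadjusted p of 0.00098 and an adjusted p of 0.0626 from edgeR. Ighg1 passed the threshold with DESeq2 (adjusted p = 0.000602), limma-voom (0.0267), sex as a covariate (0.0195) and no filter on low counts (0.00239), and in edgeR without Prmt1-null replicate 3 (0.0452). It did not pass with DESeq2's size factors (0.0618), normalization without immunoglobulin genes (0.0621) or the replicate block (0.0918). Leaving out any other library also left Ighg1 outside the threshold (0.0667 to 0.300). The size of its fold change stayed between 0.25 and 0.35 on the log2 scale with any 1 library left out.

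Ighe, the IgE heavy chain gene and the other target of IL-4, had 1156, 1140 and 929 CPM in Control and 1165, 1230 and 1184 CPM in Prmt1-null libraries. Control replicate 3 was well below the rest, and the other 2 Control libraries lay just under the lowest Prmt1-null library. A log2 fold change of 0.15 (95% interval −0.02 to 0.32) did not pass the test (adjusted p = 0.436, edgeR), and it was 0.06 without Control replicate 3. The log2 ratio of Ighe to Ighg1 per exon length was 1.25, 1.12 and 0.88 in Control and 0.88, 0.91 and 1.07 in Prmt1-null libraries, which overlapped (difference −0.13, two-sided exact permutation test, p = 0.4). This difference ran from −0.23 to −0.04 with 1 library left out.

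Ighg3, whose IgG3 product is typical of T cell-independent responses, was detected at a low level. Its values were 20.03, 17.8 and 8.05 CPM in Control, from 405 to 1125 reads, and 27.8, 26.9 and 27.4 CPM in Prmt1-null libraries, from 1523 to 1616 reads. The Prmt1-null libraries were nearly equal and all above Control, while Control replicate 3 had less than the other 2 Control libraries by more than the whole spread between these. This was a log2 fold change of 0.84 (SE 0.227, 95% interval 0.35 to 1.33, adjusted p = 0.0984, edgeR). Without Control replicate 3 it was 0.53 with an adjusted p of 0.0209. It passed with limma-voom (0.0418) and no filter on low counts (1.05e-10). It did not pass with DESeq2 (0.221) or the other settings with all 6 libraries (0.0514 to 0.0999). With no filter the unadjusted p of Ighg3 was 9.42e-14, against 0.00248 in the main fit, at a log2 fold change of 0.84 in both. Given the spread of the Control libraries, a p this small does not measure the spread between mice. Passes with no filter therefore carry little weight for any gene.

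The 2 IgG2 genes, Ighg2b favored by TGF-β and Ighg2c by interferon-γ, did not separate the groups. Ighg2b had 8.26, 9.69 and 15.2 CPM in Control and 17.1, 15.98 and 12.8 CPM in Prmt1-null libraries. Here Control replicate 3 was the highest Control library and lay above Prmt1-null replicate 3. Its log2 fold change was 0.47 (95% interval 0.06 to 0.88, adjusted p = 0.285, edgeR), and it was 0.77 (adjusted p = 0.0219) without Control replicate 3 and 0.31 (adjusted p = 0.527) without Control replicate 1. Ighg2c, the C57BL/6 counterpart of Ighg2a, was counted by only 41, 47 and 77 reads in Control and 118, 81 and 101 in Prmt1-null libraries, or 0.898, 0.744 and 1.53 CPM and 2.15, 1.35 and 1.72 CPM. Its mean normalized count of 77.1 was under the minimum of 100, and its log2 fold change of 0.72 had an interval from −0.02 to 1.47. With 1 library left out, this fold change ran from 0.51 to 1.09, the highest without Control replicate 3.

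Igha, which encodes the chain of mucosal IgA, rested on few reads. It had 3.88, 3.07 and 2.78 CPM in Control, from 140 to 194 reads, and 5.53, 4.90 and 7.38 CPM in Prmt1-null libraries, from 295 to 433 reads. Every Prmt1-null library was above Control, replicate 3 by the widest margin. Its log2 fold change was 0.87 (SE 0.198, 95% interval 0.45 to 1.30), and the adjusted p of 0.0506 from edgeR lay just outside the threshold. DESeq2 (0.00585), the sex covariate (0.0236), no filter on low counts (0.00098) and leaving out Control replicate 1 (0.0449) placed it inside, while limma-voom (0.0622), the replicate block (0.0728) and leaving out any other library (0.0821 to 0.222) did not, with the log2 fold change between 0.69 and 1.02 over the 6 fits that each left out 1 library.

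**Figure D3:**
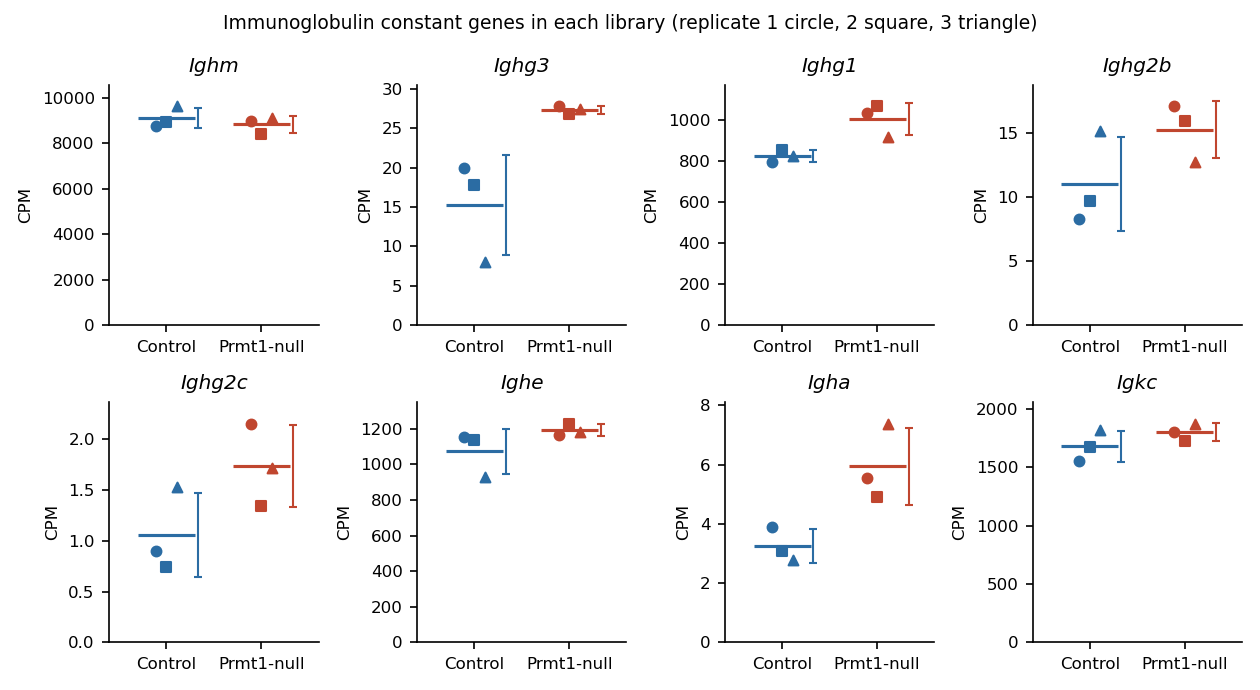
CPM of the 8 constant genes in each library, with replicates 1, 2 and 3 as circles, squares and triangles, a line at each group mean and a bar of ±1 SD (n = 3). Each axis starts at 0 and has its own scale, and Control replicate 3 is the lowest Control library for Ighg3, Ighe and Igha and the highest for Ighm, Ighg2b, Ighg2c and Igkc.

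Igkc and Iglc2 encode the light chains that pair with every heavy chain isotype. Igkc had 1554, 1673 and 1818 CPM in Control and 1808, 1725 and 1876 CPM in Prmt1-null libraries, which overlapped (log2 fold change 0.10, 95% interval −0.04 to 0.24, adjusted p = 0.562, edgeR). The log2 fold change of Igkc was 0.05 without Control replicate 1 and 0.16 without Control replicate 3. Iglc2 had 638, 707 and 805 CPM in Control and 920, 859 and 777 CPM in Prmt1-null libraries, with Control replicate 3 above Prmt1-null replicate 3. Its log2 fold change was 0.25 (95% interval 0.06 to 0.44, adjusted p = 0.201, edgeR), and it passed with DESeq2 (0.041), no filter on low counts (0.0142) and, at 0.34, without Control replicate 3 (0.0421). The ratio of Iglc2 to Igkc did not separate the groups either (difference of the log2 ratios 0.15, two-sided exact permutation test, p = 0.3). This difference ran from 0.10 to 0.24 with 1 library left out.

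Isotype choice was then read within each library, as the share of each constant gene among the heavy chain counts per exon length, which does not depend on library scaling. These shares count RNA, not cells: in a bulk library, fewer cells of a type and less RNA per cell cannot be told apart. The 6 downstream genes took 18.4, 18.3 and 15.2% of the heavy chain signal in Control and 19.6, 21.3 and 18.8% in Prmt1-null libraries, with every Prmt1-null library above every Control library. The means were 17.3 ± 1.81% and 19.9 ± 1.27% (SD, n = 3), and Ighm took the remaining 82.7% and 80.1%. Without Control replicate 3, the lowest library, the difference of 2.59 points was 1.55 points. The two-sided exact permutation test gave p = 0.1, the smallest that 3 against 3 libraries allow, and 0.18 after Benjamini-Hochberg adjustment over the 18 ratios and shares tested.

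Most of the downstream signal came from 2 genes. Ighg1 took 5.39, 5.69 and 5.30% in Control and 6.77, 7.26 and 5.96% in Prmt1-null libraries, which did not overlap (exact permutation p = 0.1, adjusted 0.18). Ighe took 12.8, 12.4 and 9.73% in Control and 12.4, 13.7 and 12.5% in Prmt1-null libraries, and these overlapped (exact permutation p = 0.4). Ighg3, Ighg2b, Ighg2c and Igha each stayed under 0.19% of the heavy chain signal in every library. Per coding length instead, Ighg1 took 9.22 ± 0.341% in Control and 11.2 ± 1.06% in Prmt1-null iGBs, Ighe 9.59 ± 1.38% and 10.5 ± 0.541%, and Ighg3 at most 0.301% in any library, so the size of these shares depends on the length used, while the groups again overlapped for Ighe (exact permutation p = 0.5) and not for Ighg1 (p = 0.1).

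Set against Ighm in the same library, 4 of the 6 downstream genes had ratios that did not overlap between the groups and were higher without Prmt1, which was so for 12.1% of all genes set against Ighm in this way. The fold between group means of the log2 ratio was 1.26 for Ighg1, 1.99 for Ighg3, 1.75 for Ighg2c and 1.88 for Igha (exact permutation p = 0.1 for each, adjusted 0.18). Without Control replicate 3 the difference in the log2 ratio was 0.54 in place of 0.99 for Ighg3 and 0.06 in place of 0.20 for Ighe. For Ighg2c the highest Control and lowest Prmt1-null log2 ratios, −12.11 and −12.10 on 77 and 81 reads, nearly touched, and its CPM and its share of the heavy chain signal overlapped between the groups. The groups overlapped in the ratio for Ighg2b, at 1.47-fold (exact permutation p = 0.2), and for Ighe, at 1.15-fold (exact permutation p = 0.3).

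**Figure D4:**
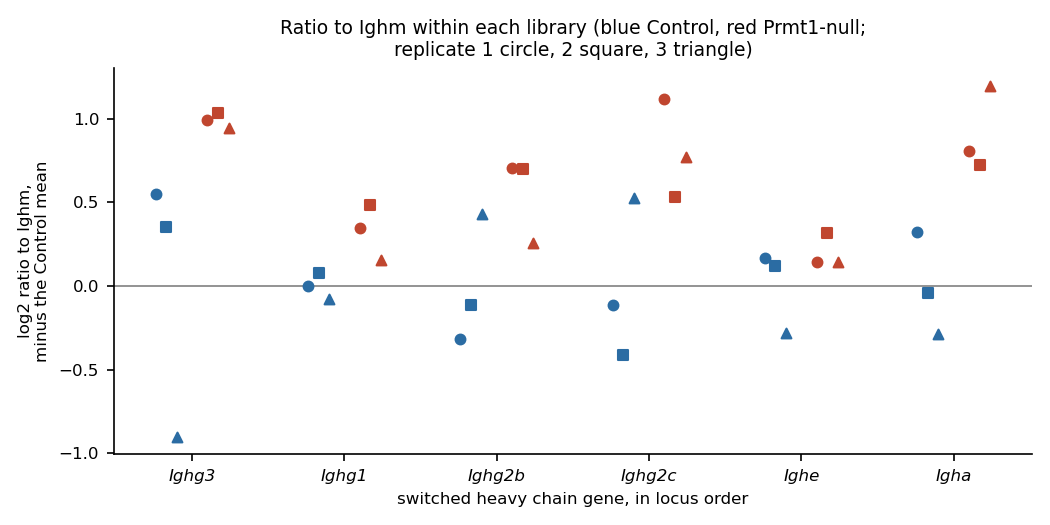
log2 ratio of each downstream gene to Ighm per exon length in each library, minus the Control mean of that gene, with Control in blue, Prmt1-null in red and replicates 1, 2 and 3 as circles, squares and triangles. All Prmt1-null points lie above 0, and Control replicate 3 is the lowest point for Ighg3 while it is the highest Control point for Ighg2b and Ighg2c.

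The heavy chain genes together did not gain on the light chain genes. The log2 ratio of summed heavy to summed light chain signal per exon length was 0.53, 0.43 and 0.35 in Control and 0.27, 0.29 and 0.31 in Prmt1-null libraries. Every Prmt1-null library was lower than every Control library, with a difference of −0.14 (exact permutation p = 0.1, adjusted 0.18). The 8 constant genes took 1.28 ± 0.0396% of all counts in Control and 1.28 ± 0.0480% in Prmt1-null libraries (SD, n = 3, exact permutation p = 0.8).

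**Figure D5:**
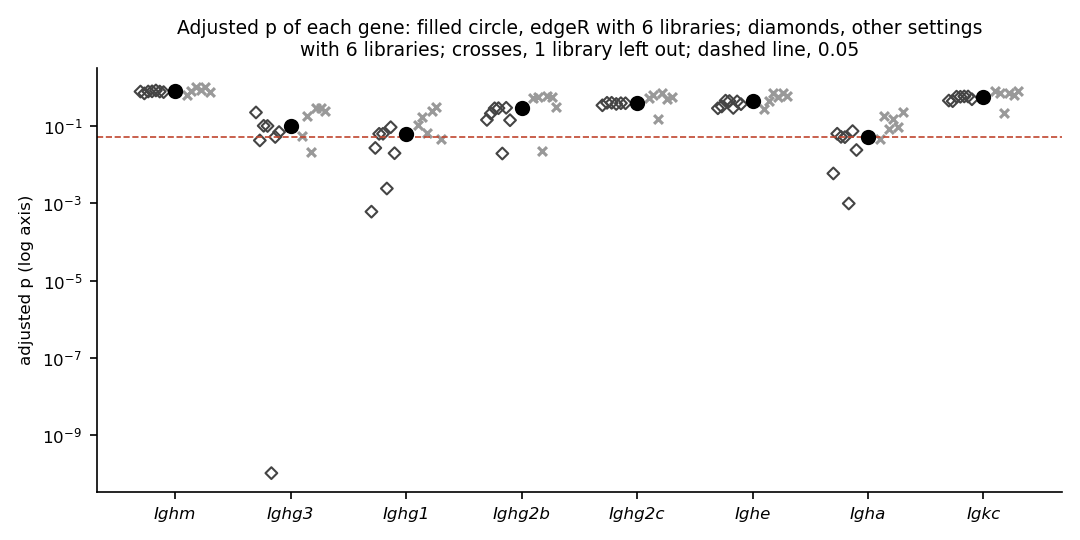
Adjusted p of each constant gene on a log axis, from edgeR with all 6 libraries (filled circles), from 7 other settings with all libraries (diamonds, 6 for Ighg2c) and with 1 library left out (crosses), with a dashed line at 0.05. Ighm, Ighg2c, Ighe and Igkc stay above the line in every setting, and Ighg3, Ighg1, Ighg2b and Igha fall on either side of it.

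Genes that act with the constant genes were taken from lists. Among 8 partner genes of the antibody, 5 were tested and 0 were called. Besides Iglc2, the 3 with the smallest p were Cd79b, a signaling chain of the B cell receptor, at 547 ± 58.3 CPM in Control and 626 ± 10.8 CPM in Prmt1-null iGBs (log2 fold change 0.19, adjusted p = 0.257), Mzb1, a chaperone of IgM assembly, at 165 ± 10.3 and 175 ± 9.28 CPM (0.08, adjusted p = 0.641), and Jchain, which joins IgM and IgA into polymers, at 162 ± 19.4 and 152 ± 4.55 CPM (−0.09, adjusted p = 0.669, edgeR for all 3).

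Of 29 genes for cytokine signaling and germline transcription, 28 were tested, 16 with a log2 fold change above 0, and 1 was called. Batf, an AP-1 factor needed for class switching, rose from 25.4 ± 2.84 to 37.3 ± 2.00 CPM (SD, n = 3), a log2 fold change of 0.56 (SE 0.0968, adjusted p = 0.0149, edgeR), with every Prmt1-null library above Control. The adjusted p of Batf ran from 0.00498 to 0.102 over the fits without 1 library, and the call was lost without Control replicate 2 (0.0718) or Prmt1-null replicate 1 (0.0614), 2 (0.102) or 3 (0.0723). Runx1, which acts with TGF-β on the Igha promoter, and Bcl6, a repressor of germline Ighe transcription, had log2 fold changes of −0.18 (adjusted p = 0.191) and −0.19 (adjusted p = 0.201, edgeR), and neither passed the test.

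The 20 genes for heavy chain mRNA processing and immunoglobulin expression included 0 called genes, with 11 log2 fold changes above 0 and 9 below. Xbp1, a driver of antibody secretion, came closest, at 339 ± 5.39 and 414 ± 34.1 CPM (log2 fold change 0.29, adjusted p = 0.0571, edgeR), and passed with DESeq2 (0.000668), limma-voom (0.031), no filter on low counts (0.00098) and the sex covariate (0.0415). It did not pass with DESeq2's size factors (0.0566), normalization without immunoglobulin genes (0.057), the replicate block (0.0949) or any 1 library left out (0.0595 to 0.291). Pcf11, a cleavage factor, and Aff4, a scaffold of the elongation complex, had log2 fold changes of −0.22 (adjusted p = 0.0924) and −0.24 (adjusted p = 0.107, edgeR), and both passed with DESeq2 (0.0213 and 0.0218), Aff4 also with no filter on low counts (0.0274). Hnrnpll, a splicing regulator of plasma cells, had only 0.934 ± 0.277 and 1.98 ± 0.503 CPM (log2 fold change 1.09, adjusted p = 0.14, edgeR). The summed level of 6 plasma cell markers, Xbp1 among them, was 1141 to 1240 CPM in Control and 1276 to 1381 CPM in Prmt1-null iGBs, and its part in the values of Ighg1, Ighg3 and Igha was not tested. Irf4, at 490 and 548 CPM, and Xbp1 held the largest parts of this sum. Of the 6 markers 0 were called, and Jchain had a log2 fold change below 0. Only for Xbp1 did the groups not overlap, as in 9.95% of all genes in that direction. Sdc1, the defining surface marker of plasma cells, was at 1.43 CPM in Control and 2.06 CPM in Prmt1-null iGBs (adjusted p = 0.489, edgeR).

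Among 10 receptors for antibody, 9 were tested and 0 were called. Fcer2a, the low-affinity IgE receptor CD23 and an IL-4 target, was abundant at 2275 ± 117 CPM in Control and 2487 ± 53.7 CPM in Prmt1-null iGBs (log2 fold change 0.13, adjusted p = 0.35, edgeR). Fcrl1, an Fc receptor-like molecule of B cells, and Fcgrt, the neonatal Fc receptor, had log2 fold changes of 0.08 and −0.25 (adjusted p = 0.614 and 0.536, edgeR), which ran from 0.04 to 0.13 and from −0.44 to −0.11 with 1 library left out. Pigr, which carries polymeric IgA across epithelia, had few reads, 38, 36 and 23 in Control and 10, 28 and 4 in Prmt1-null libraries (log2 fold change −1.36, adjusted p = 0.413, edgeR). With 1 library left out, its log2 fold change ran from −2.28 to −0.92.

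Outside the immunoglobulin loci, 75 of 18027 genes followed Ighg1 over the 6 libraries with a Pearson r of log2 CPM over 0.95. Among those closest to it were Rasa4, a regulator of Ras signaling (r = 0.990), Gm13910 (r = 0.987) and Tcf7, a transcription factor best known from T cells (r = 0.986). These values hold the difference between the groups as well as the spread within them, and are a description of 6 libraries with no test. Tcf7 had 27.5, 29.0 and 29.4 CPM in Control and 35.7, 36.0 and 30.9 CPM in Prmt1-null libraries. Its Prmt1-null libraries all lay above Control, and replicate 3 was the lowest of them, as for Ighg1. None of these 3 genes was called (adjusted p from 0.201 to 0.379, edgeR).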

How the data were processed

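Per the labels and the study's methods, the authors trimmed reads with Trimmomatic 0.32, aligned them to GRCm38 with STAR 2.3.0e, and counted on exons, with featureCounts 1.4.4, the alignments that hit no more than 2 places. The library kit was stranded, and the strand setting of the counting is not given in the sources used here. What the authors deposited is a table of raw counts for each gene, which was used as it stands.

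The comparison was run with edgeR 4.0.16 under R 4.3.3. It left out 398 chromosome Y genes, filtered by filterByExpr (minimum count 10), scaled counts by TMM and tested 18268 genes by glmQLFit and glmQLFTest with Benjamini-Hochberg adjustment. SEs were derived from the log2 fold change and the F statistic. Levels were CPM per kilobase of exon or coding length from GENCODE M21. Both divide the same counts on whole exons, so the coding-length values still hold reads from noncoding exon bases. Shares and ratios were compared by two-sided exact permutation tests over 20 arrangements. A count of 3 corresponds to 0.0478 to 0.0662 CPM, a floor that covers counting error only. Each library is 1 mouse, and p-values of the main fit measure the spread between these mice. The fit with no filter on low counts gave far smaller p-values for Ighg3 and Prmt1 at nearly the same fold changes, and its p-values are not read in this way.

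Alternatives were DESeq2 1.42.0, limma-voom 3.58.1, DESeq2's size factors in edgeR, normalization without immunoglobulin genes, no low-count filter, no minimum mean count, a replicate block, sex as a covariate, coding length and leaving out each library. The text names all 10 members, Prmt1, in each list the called genes and the 4 with the smallest p, and the 5 genes most like Ighg1, and some genes that this rule takes in are not reported here. Iglc2 was used in ratios because Iglc1 was not analysed here; this, ratios for every isotype and unadjusted p-values were added after the data had been seen, and Sdc1 was named then too. The members and lists were chosen with earlier results of these data known.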

Additional observations from a re-analysis of the deposited data

How the results depend on the processing

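The direction of the fold change of each of the 8 constant genes was the same in all 13 alternative fits, while calls depended on the test: 2 of the 8 were called with DESeq2, 2 with limma-voom, 4 with no filter on low counts, 2 with sex as a covariate, 4 at an unadjusted p under 0.05, and 0 with DESeq2's size factors or normalization without immunoglobulin genes. Over all genes, 709 were called with DESeq2, 249 with limma-voom, 675 with no filter on low counts, 283 with sex as a covariate and 2467 at an unadjusted p under 0.05, against 216. With each library left out in turn, from 0 to 2 of the constant genes and from 31 to 340 of all genes were called, the highest without Control replicate 3 and the lowest of all genes without Prmt1-null replicate 2. With 1 library left out, the log2 fold change of Jchain ran from −0.17 to 0.0096, above 0 without Control replicate 1, and the difference in the share of all counts on the 8 genes ran from −0.0173 to 0.0307 points against 0.0067, below 0 without Prmt1-null replicate 3 or Control replicate 1 (−0.012). The cause was not tested. The replicate numbers did not pair the libraries, since deviations of same-numbered libraries correlated at −0.0747, 0.0445 and −0.0775. With the replicate block 151 genes and 0 of the 8 were called. Depth was not a limit for the abundant isotypes, while Ighg2c rested on 41 to 118 reads and Igha on 140 to 433.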
